A study of Mus musculus with 8 samples.

Results

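The 70 genes described here are genes of neuron development that were lower in bone of FGFR1-CKO mice. The submitters gathered 105 such genes in one sheet of their workbook, from Gene Ontology terms (axon guidance, axon formation, regulation of neuron projection development and generation of neurons) found among the 1265 genes that their comparison listed as lower. The 70 are what remained after ephrin, semaphorin, plexin, neuropilin, Slit, Robo, cadherin, integrin, laminin, collagen, FGF, WNT, solute carrier, kinesin, protease and a few other genes had been set aside by symbol. All 70 stood in the submitters' table of 1994 listed genes, of which 729 were higher. The Control against FGFR1-CKO contrast therefore chose these genes, and that each one was lower is a property of the choice. Their fold changes, and the counts past a threshold given further on, are therefore a description and support nothing about these genes.

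RNA came from the shaft of the femur of 16-week-old mice, after dissection and washing out of the marrow. Controls had the genotype Fgfr1f/f, with loxP-flanked Fgfr1 and no Cre named, and FGFR1-CKO mice had the genotype DMP1-CreER; Fgfr1f/f, in which a Dmp1 promoter, active in late osteoblasts and osteocytes, drives a tamoxifen-dependent Cre recombinase. Mice of both groups ate chow with tamoxifen at 400 mg/kg for 4 weeks from 12 weeks of age, and an effect of Cre itself cannot be told apart from that of losing Fgfr1. The 4 Control and 4 FGFR1-CKO libraries are a choice: of 6 Control samples the submitters kept those with most Fgfr1, and of 7 FGFR1-CKO samples those with least. Whether each library is from its own mouse is not stated in the labels.

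Growing neurons extend an axon that is steered by secreted cues such as netrins, read by receptors on its tip, and passed on through small GTPases to actin and microtubules. Adhesion proteins, trophic factors and transcription factors act in the same process, and nearly all of these families also work in cells outside the nervous system. Bone holds nerve fibres whose cell bodies lie elsewhere, and its osteocytes carry long branched processes through the mineralised matrix.

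Library totals ran from 9642436 to 11094287 reads, and a value of one of the 70 genes in one library rested on 26 to 8907 reads. Fgfr1, the targeted receptor gene, measured 677, 506, 579 and 615 CPM (reads of the gene scaled to all reads of the library) in Control replicates 1 to 4 against 346, 310, 339 and 275 CPM in FGFR1-CKO replicates 1 to 4. The groups did not overlap, which the choice of libraries by their Fgfr1 level in part fixed. For other genes that vary with Fgfr1, the same choice may widen the gap between groups and narrow the spread within them. This holds for the 70 genes and for the cell type markers below. It was not tested, because the values used here cover only the libraries that were kept. Values of single libraries are given in the order of replicates 1 to 4 throughout. The 2 collagen I genes took 12.1%, 17.2%, 15.1% and 12.8% of the reads of the Control libraries and 7.21%, 7.13%, 11.2% and 6.77% of those of the FGFR1-CKO libraries, so that Control replicate 2 and FGFR1-CKO replicate 3 were the highest of their groups. In bulk tissue, fewer cells of a type and less RNA per cell cannot be told apart.

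The upstream sequences of 4 of the 70 genes are shown because these genes, lower in FGFR1-CKO bone, also stood in gene lists of a bone cell line treated with an agent named BGJ, described further on. They are Ptn, which encodes the heparin-binding growth factor pleiotrophin, Irx3, an Iroquois homeobox transcription factor, Id3, an inhibitor of basic helix-loop-helix transcription factors, and Magi2, a scaffold with PDZ domains. Each run is the 250 bases before a RefSeq transcript start (build GRCm38.p6), 5′ to 3′ on the strand of the gene, and capitals mark CG dinucleotides. The window of Ptn lies at chr6:36810180-36810429 and that of Irx3 at chr8:91801655-91801904, both on the minus strand. That of Id3 lies at chr4:136143572-136143821 on the plus strand. That of Magi2, the more upstream of the 2 starts in the table, lies at chr5:19226796-19227045 on the plus strand. Upstream refers to the RefSeq start only, because GENCODE M21 places the gene starts elsewhere. There, Irx3 spans chr8:91798525-91802067 and Id3 chr4:136143497-136145755, so both windows lie inside the gene and may be transcribed. The Ptn gene reaches to 36810220 and the Magi2 gene begins at 19227036, so their windows overlap the gene in part.
Ptn: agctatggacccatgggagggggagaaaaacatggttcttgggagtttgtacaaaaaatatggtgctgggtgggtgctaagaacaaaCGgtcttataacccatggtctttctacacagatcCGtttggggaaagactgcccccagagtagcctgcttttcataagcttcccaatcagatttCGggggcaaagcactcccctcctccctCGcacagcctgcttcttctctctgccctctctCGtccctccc
Irx3: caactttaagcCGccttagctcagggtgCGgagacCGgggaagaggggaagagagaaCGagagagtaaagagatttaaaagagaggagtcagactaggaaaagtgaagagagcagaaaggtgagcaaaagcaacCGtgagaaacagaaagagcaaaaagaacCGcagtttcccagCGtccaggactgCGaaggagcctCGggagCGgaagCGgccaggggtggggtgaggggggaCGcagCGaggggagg
Id3: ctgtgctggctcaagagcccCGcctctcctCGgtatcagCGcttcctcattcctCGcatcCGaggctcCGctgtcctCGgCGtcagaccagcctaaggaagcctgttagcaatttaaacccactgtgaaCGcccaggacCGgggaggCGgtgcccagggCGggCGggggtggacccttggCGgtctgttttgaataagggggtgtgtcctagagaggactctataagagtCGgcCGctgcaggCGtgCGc
Magi2: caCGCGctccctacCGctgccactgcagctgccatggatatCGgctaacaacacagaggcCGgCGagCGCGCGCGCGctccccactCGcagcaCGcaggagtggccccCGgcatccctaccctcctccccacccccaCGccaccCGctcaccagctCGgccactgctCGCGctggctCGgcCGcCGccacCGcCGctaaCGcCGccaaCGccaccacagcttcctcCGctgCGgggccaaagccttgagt

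Ptn held 5 CG dinucleotides in these 250 bases, Irx3 held 13, Id3 held 18 and Magi2 held 29. G and C made up 52.0%, 56.0%, 62.8% and 72.0% of the bases in the same order. The other Magi2 start gave the opposite picture: its window at chr5:19907268-19907517 held 3 CG dinucleotides and 41.2% G and C. The place of Magi2 in this order thus depends on the start chosen. RefSeq windows of 250 bases before to 50 bases after a start could be matched for 52 of the 70 genes, in 81 windows. Their median G and C content was 62.0% and their median number of CG dinucleotides 17, against 61.7% and 17 over 1187 windows of all listed lower genes and 52.7% and 7 over all 32851 windows of the table. The GC box GGGCGG, searched on both strands, stood in 60.5% of the windows of the 70 genes, 60.7% of those of the listed lower genes and 35.7% of all windows. The ETS letters CCGGAAG stood in 7.41%, 4.72% and 8.86% of the same 3 sets, the AP-1 letters TGANTCA in 2.47%, 5.48% and 7.81%, the RUNX letters TGTGGTT in 1.23%, 2.44% and 5.27%, and the TATA box letters TATAAA in 11.1%, 9.52% and 13.6%. For the 70 genes, the ETS, AP-1, RUNX and TATA box shares rested on 6, 2, 1 and 9 of the 81 windows, in that order. A gene can have several windows. No motif of the 5 contains another, and a match is only a match of letters. In base composition and in the GC box, the windows of the 70 genes were thus close to those of all listed lower genes, which include them.

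Across the 70 genes, the mean CPM of FGFR1-CKO was 42.6% to 76.1% of the Control mean, with a median of 67.6%. The median log2 fold change on the log2(CPM + 1) scale was -0.53 (range -1.09 to -0.37), beside -0.54 over all 1265 listed lower genes and -0.43 over all 1994 listed genes. In limma, 42 of the 70 passed an adjusted p of 0.05 with a log2 fold change of -0.5 or lower, a share of 60.0%, where 38.4% of all listed genes and 60.6% of the listed lower genes did so. Each of the 70 had an adjusted p under 0.05, as the choice of the genes by the same libraries largely fixed, so that this count is that of the log2 fold changes of -0.5 or lower. The other 28 lay between -0.5 and 0. The count depended on the scaling: with size factors, 64 of the 70 passed as lower, where 58.0% of all listed genes did so. In 59 of the 70 every FGFR1-CKO library lay below every Control library, against 54.9% of all listed genes and 86.5% of the listed lower genes. In size of change and in the number apart, these genes were thus described by nearly the same figures as the lowered genes at large. The heat map shows this gene by gene.

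**Figure D1:**
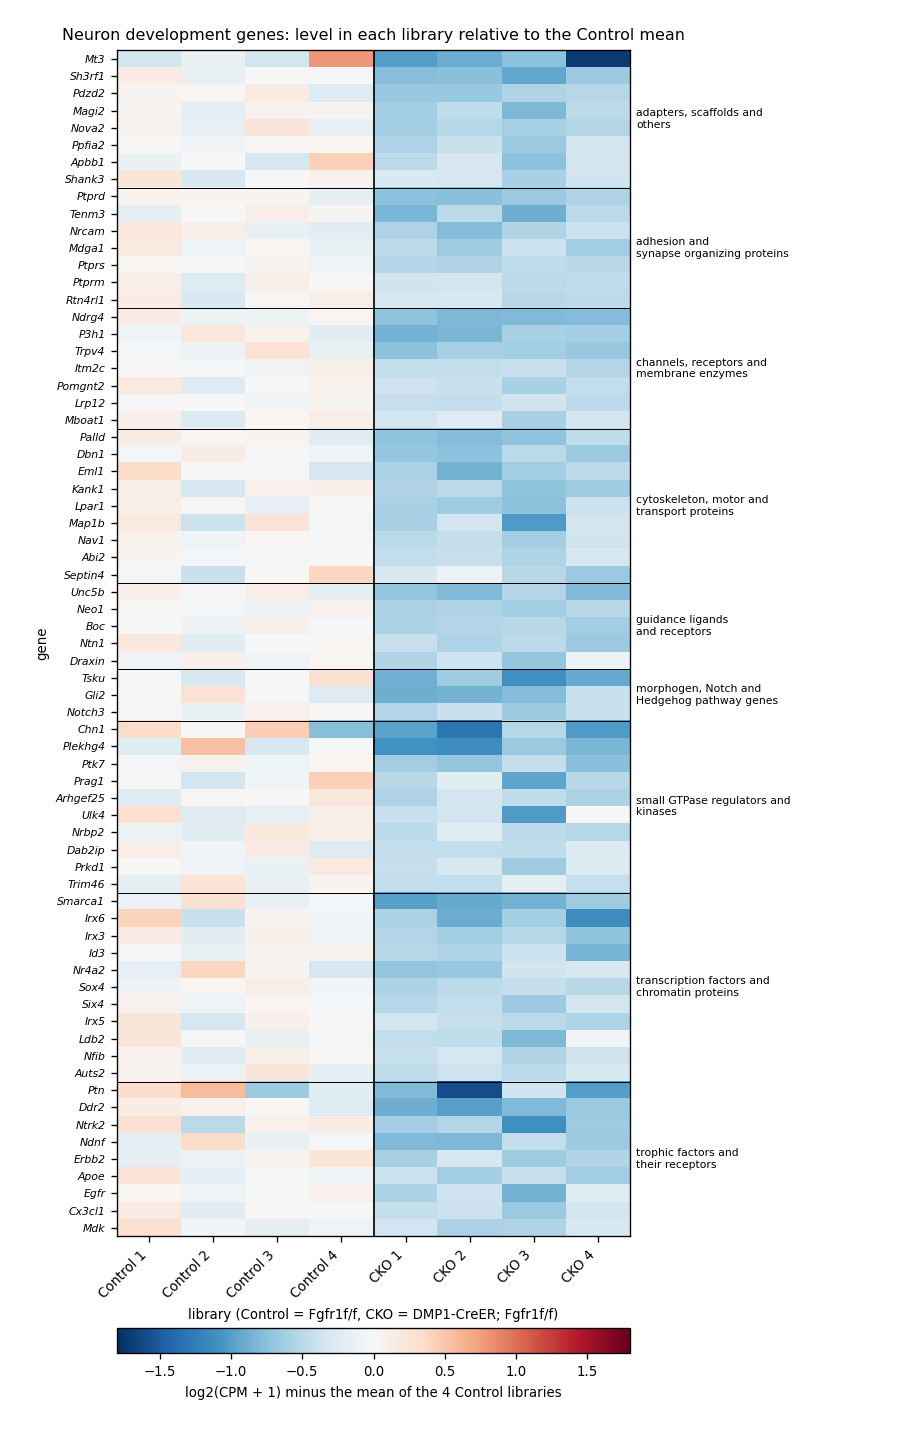
Level of 69 of the 70 genes (rows, grouped by role) in the 8 libraries (columns), as log2(CPM + 1) minus the mean of the 4 Control libraries. The FGFR1-CKO columns are below 0 almost throughout; Mt3, Chn1, Ptn and Plekhg4 are the darkest rows, and single squares stand out, such as Mt3 in Control replicate 4 and Chn1 in Control replicate 4.

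In the authors' deposited table, the log2 fold changes of these genes ran from -1.33 (Mt3) to -0.50 (Shank3). Nearest to the limit of 0.5 that a note in the workbook states for the fold change were Shank3 at -0.50, Mboat1 at -0.51 and Dab2ip at -0.52 in that deposited table of the authors. Over all listed lower genes the values of the authors' deposited table reached -0.496, so that column does not keep exactly to the stated limit. Nearest inside the adjusted p of 0.05 were Trim46 at 0.045, Ulk4 at 0.0306 and Ptn at 0.0278, again in the authors' deposited table. The lowest mean levels, above the limit of 5 CPM, were 5.12 CPM for Trim46, 5.16 CPM for Ntrk2 and 5.33 CPM for Draxin. Genes outside these limits are not analysed here.

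Secreted guidance cues and the receptors that read them made up 5 of the 70 genes: the netrin receptor Unc5b, the netrin and RGM receptor Neo1 (neogenin), the Hedgehog co-receptor Boc, the ligand Ntn1 (netrin-1) and Draxin, a secreted repellent that binds netrin receptors. Their median log2 fold change was -0.55, and in none of the 5 did the groups overlap, where 86.5% of all listed lower genes were apart. The receptors were far more abundant than the ligands: per kilobase of exon, Control levels were 37.4 CPM for Unc5b, 16.7 for Neo1 and 14.5 for Boc, against 2.30 for Ntn1 and 1.20 for Draxin. Unc5b measured 249, 227, 254 and 206 CPM in the Control libraries and 143, 134, 162 and 134 CPM in the FGFR1-CKO libraries (log2 fold change -0.70, SE 0.09). Its highest FGFR1-CKO library was replicate 3. Neo1 measured 148, 143, 137 and 154 CPM in the Control libraries and 98.2, 99.6, 93.7 and 102 CPM in the FGFR1-CKO libraries (log2 fold change -0.56, SE 0.07). Boc measured 64.9, 60.5, 68.6 and 63.7 CPM in the Control libraries and 43.2, 44.4, 45.3 and 41.3 CPM in the FGFR1-CKO libraries (log2 fold change -0.55, SE 0.07). In both genes the libraries of a group lay close together. Ntn1 had means of 14.5 ± 1.67 CPM in Control and 9.74 ± 0.77 CPM (SD, n = 4 each). Draxin measured 5.93, 6.67, 5.89 and 6.39 CPM in the Control libraries and 3.94, 4.55, 3.46 and 5.79 CPM in the FGFR1-CKO libraries, and FGFR1-CKO replicate 4 came within the reach of the lowest Control library without overlapping it.

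Among 7 adhesion and synapse organising proteins, the receptor tyrosine phosphatases Ptprs and Ptprd, which organise synapses by binding partners on the opposite cell, had the highest and the second highest Control CPM of the 70 genes. Ptprs measured 815, 793, 820.4 and 759 CPM in the Control libraries and 553, 549, 579.9 and 565 CPM in the FGFR1-CKO libraries (log2 fold change -0.50, SE 0.07). Ptprd measured 484, 475, 479 and 412 CPM in the Control libraries and 277, 273, 289 and 314 CPM in the FGFR1-CKO libraries (log2 fold change -0.68, SE 0.08). Within each group their libraries differed little, apart from Control replicate 4, which was the lowest Control for both. Ptprm, a related phosphatase that binds its own kind on neighbouring cells, measured 204, 161, 202 and 189 CPM in the Control libraries and 147, 149, 136 and 137 CPM in the FGFR1-CKO libraries (log2 fold change -0.40, SE 0.09). Its lowest Control library, replicate 2, was still above the highest FGFR1-CKO library. The other members were the Nogo receptor relative Rtn4rl1 (log2 fold change -0.39), the neuroligin-binding Mdga1 (-0.53), the teneurin Tenm3 (-0.67) and the L1 family protein Nrcam (-0.57). The median of the 7 was -0.53. None of the 7 overlapped between groups, where 86.5% of all listed lower genes were apart. Per kilobase of exon the 3 phosphatases ranked 4, 10 and 9 among the 70 in Control, while Nrcam ranked 69 at 0.817 CPM per kilobase.

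The 9 trophic factors and receptors comprised secreted factors (Apoe, a lipid carrier, Ndnf, Ptn, midkine or Mdk, and the membrane-bound chemokine Cx3cl1) and receptor kinases (the collagen receptor Ddr2, Egfr, Erbb2 and Ntrk2, the receptor for brain-derived neurotrophic factor). Apoe had the highest level per kilobase of the 70 genes, 209 CPM per kilobase in Control and 147 in FGFR1-CKO, and measured 524, 399, 444 and 423 CPM in the Control libraries and 339, 292, 333 and 289 CPM in the FGFR1-CKO libraries (log2 fold change -0.51, SE 0.10). Control replicate 1 was its highest library. Ddr2 measured 203, 195, 187 and 156 CPM in the Control libraries and 100.2, 93.2, 106 and 116 CPM in the FGFR1-CKO libraries (log2 fold change -0.83, SE 0.10). Egfr measured 35.1, 32.4, 33.9 and 36.1 CPM in the Control libraries and 22.9, 26.3, 18.5 and 29.5 CPM in the FGFR1-CKO libraries (log2 fold change -0.50, SE 0.12). FGFR1-CKO replicate 3 was its lowest library and FGFR1-CKO replicate 4 the highest of its group.

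Ptn had one of the largest fold changes and one of the widest spreads. It measured 18.99, 22.8, 9.21 and 12.9 CPM in the Control libraries and 8.30, 4.35, 11.5 and 7.13 CPM in the FGFR1-CKO libraries (log2 fold change -0.93, SE 0.29). Control replicate 3 lay below FGFR1-CKO replicate 3, so the groups overlapped. On the log2(CPM + 1) scale Ptn stood 0.56 above its group mean in Control replicate 2 and 0.57 above it in FGFR1-CKO replicate 3, the libraries with the most collagen I reads of their groups. Whether the collagen I share and the Ptn level are linked was not tested. Ntrk2 had the lowest level per kilobase of the 70, 0.347 CPM per kilobase in Control and 0.188 in FGFR1-CKO, and measured 8.11, 4.42, 7.0 and 7.25 CPM in the Control libraries and 3.94, 4.25, 2.50 and 3.82 CPM in the FGFR1-CKO libraries. Control replicate 2 stood just above the highest FGFR1-CKO library. Ndnf (log2 fold change -0.68), Erbb2 (-0.52), Cx3cl1 (-0.45) and Mdk (-0.43) did not overlap between groups. Of the neurotrophin and GDNF family, a list of 18 ligands and receptors, 3 were listed: Ntrk2, Gfra1 (log2 fold change -0.41, not past the threshold) and Gfra2, a receptor for neurturin, which rose by 0.63 on the log2 scale. The remaining 15 were not listed, which says nothing of their level.

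**Figure D2:**
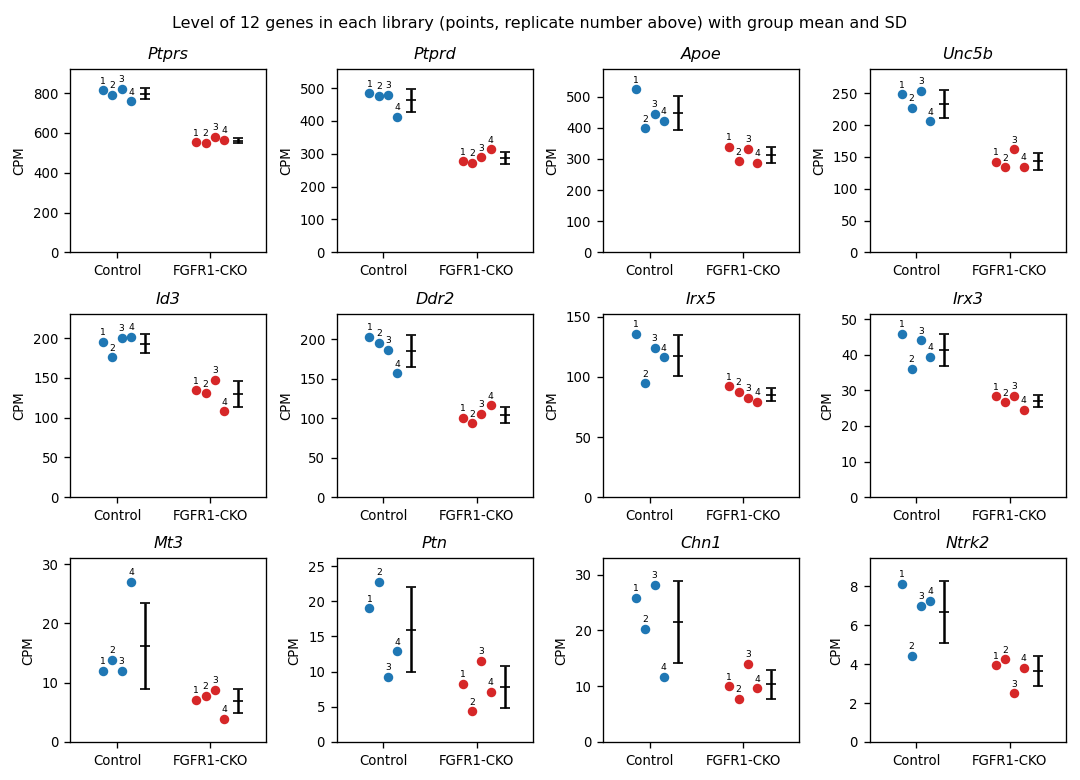
CPM of 12 of the 70 genes in each library (points, with the replicate number above), with group mean and SD as bars, on linear axes that start at 0. Ptprs, Ptprd and Ddr2 show tight, separate groups, whereas Ptn and Chn1 overlap and Mt3 has one Control library, replicate 4 at 27.0 CPM, far above the others.

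Transcription factors and chromatin proteins formed the largest role, 12 genes with a median log2 fold change of -0.50, and included 3 Iroquois homeobox genes (Irx3, Irx5, Irx6). Id3 measured 195, 176, 200.2 and 201 CPM in the Control libraries and 134, 131, 147 and 108 CPM in the FGFR1-CKO libraries (log2 fold change -0.57, SE 0.10). Nfib, a nuclear factor I family member, measured 130.0, 108, 132 and 124 CPM in the Control libraries and 93.2, 99.2, 83.9 and 94.9 CPM in the FGFR1-CKO libraries (log2 fold change -0.41, SE 0.08). Irx5, also on the list of osteocyte markers used here, measured 136, 94.6, 124 and 116 CPM in the Control libraries and 92.2, 87.3, 82.7 and 79.1 CPM in the FGFR1-CKO libraries (log2 fold change -0.45, SE 0.11). In all 3 the groups were apart, with Control replicate 2 the lowest Control library. Irx3 measured 45.8, 35.96, 44.03 and 39.5 CPM in the Control libraries and 28.3, 26.6, 28.4 and 24.6 CPM in the FGFR1-CKO libraries (log2 fold change -0.59, SE 0.09). Irx6 had the largest change of the 3 Iroquois genes, at -0.80 (SE 0.17), and the lowest level, 14.3 ± 3.49 CPM in Control against 7.73 ± 1.53 CPM with the knockout (SD, n = 4 each). In each of the 3, Control replicate 1 was the highest and Control replicate 2 the lowest Control library, and FGFR1-CKO replicate 4 was the lowest of its group. Irx3, Irx5 and Irx6 lie side by side on chromosome 8 (GRCm38, GENCODE M21): chr8:91798525-91802067 on the minus strand, chr8:92357625-92376286 and chr8:92674288-92680956 on the plus strand, with gaps of 555.6 and 298.0 kilobases.

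Smarca1, the ATPase of an ISWI chromatin remodeller, changed most in this role: 10.98, 14.6, 10.8 and 11.7 CPM in the Control libraries and 5.60, 5.87, 6.15 and 7.34 CPM in the FGFR1-CKO libraries (log2 fold change -0.84, SE 0.12). All Control libraries lay above all FGFR1-CKO libraries. Nr4a2, an orphan nuclear receptor needed for dopaminergic neurons, measured 13.3, 19.7, 15.4 and 11.8 CPM in the Control libraries and 8.61, 8.80, 11.3 and 11.9 CPM in the FGFR1-CKO libraries (log2 fold change -0.51, SE 0.16). Ldb2, which binds LIM domain factors, measured 20.1, 16.8, 15.6 and 16.7 CPM in the Control libraries and 12.3, 12.2, 9.42 and 16.5 CPM in the FGFR1-CKO libraries (log2 fold change -0.44, SE 0.15). Both overlapped between groups: Control replicate 4 lay below FGFR1-CKO replicate 4 for Nr4a2, and Control replicate 3 below FGFR1-CKO replicate 4 for Ldb2. Sox4 (-0.49), Six4 (-0.49) and Auts2 (-0.40) did not overlap.

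Morphogen, Notch and Hedgehog pathway genes were 3 of the 70, with a median log2 fold change of -0.73. Notch3, a Notch receptor that is also a marker of pericytes and smooth muscle, measured 155, 140.3, 160.5 and 155 CPM in the Control libraries and 105, 116, 96.6 and 115 CPM in the FGFR1-CKO libraries (log2 fold change -0.50, SE 0.08). Tsku, which encodes the secreted leucine-rich repeat protein tsukushi, measured 37.8, 31.5, 38.4 and 46.5 CPM in the Control libraries and 20.4, 24.2, 17.3 and 19.95 CPM in the FGFR1-CKO libraries (log2 fold change -0.88, SE 0.13). Gli2, a transcription factor of the Hedgehog pathway, measured 13.5, 16.2, 13.2 and 11.3 CPM in the Control libraries and 6.84, 6.98, 7.40 and 9.92 CPM in the FGFR1-CKO libraries (log2 fold change -0.73, SE 0.14). None of the 3 overlapped, where 86.5% of all listed lower genes were apart. For Tsku the lowest Control library, replicate 2, was well above the highest FGFR1-CKO library, replicate 2. Of a list of 23 Notch and Hedgehog pathway genes, 9 stood among the listed lower genes, and 6 of them passed the threshold. Among those outside the 70 were the Notch target genes Heyl (log2 fold change -0.92, SE 0.12) and Hey1 (-0.81, SE 0.15). Of 34 genes of the BMP and TGF beta family, 13 stood among the listed lower genes, and 8 passed the threshold. Both counts are to be read against the 60.6% of all listed lower genes that passed. Both lists were chosen with earlier results of these data known.

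The role of small GTPase regulators and kinases, many of which act between receptors and the cytoskeleton, held 10 of the 70. The list also placed Trim46 there, though it is described below by its work on microtubules. The median log2 fold change of the 10 was -0.46. Dab2ip, a Ras GTPase-activating protein, measured 152, 135, 156 and 119 CPM in the Control libraries and 103, 103, 102 and 117 CPM in the FGFR1-CKO libraries (log2 fold change -0.40, SE 0.09). Ptk7, a pseudokinase receptor of planar cell polarity, measured 71.8, 75.9, 68.5 and 74.4 CPM in the Control libraries and 46.8, 44.1, 53.5 and 42.6 CPM in the FGFR1-CKO libraries (log2 fold change -0.63, SE 0.08). Nrbp2, a pseudokinase, measured 44.6, 42.4, 55.4 and 51.9 CPM in the Control libraries and 34.5, 41.4, 34.5 and 33.5 CPM in the FGFR1-CKO libraries (log2 fold change -0.42, SE 0.10). These were the most abundant of the role by CPM, and each was apart between groups. Chn1, which encodes the Rac GTPase-activating protein chimaerin 1, had the second largest change of the 70 on the log2(CPM + 1) scale: 25.9, 20.3, 28.2 and 11.6 CPM in the Control libraries and 9.96, 7.69, 14.03 and 9.61 CPM in the FGFR1-CKO libraries (log2 fold change -0.95, SE 0.25). Control replicate 4 was low and lay under FGFR1-CKO replicate 3, so the groups overlapped. Plekhg4, a guanine nucleotide exchange factor of small GTPases, measured 9.001, 15.8, 8.57 and 10.4 CPM in the Control libraries and 4.46, 4.35, 6.34 and 5.58 CPM in the FGFR1-CKO libraries (log2 fold change -0.92, SE 0.18). Control replicate 2 was its highest library, and the groups were apart. By the ratio of means the order was the other way round, with Plekhg4 at 47.4% and Chn1 at 48.0% of Control.

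Prag1, a pseudokinase, measured 21.5, 16.9, 20.4 and 29.5 CPM in the Control libraries and 14.9, 18.5, 10.8 and 14.99 CPM in the FGFR1-CKO libraries (log2 fold change -0.54, SE 0.18). Ulk4, another pseudokinase, measured 9.10, 6.04, 6.45 and 7.91 CPM in the Control libraries and 5.29, 5.56, 3.07 and 7.13 CPM in the FGFR1-CKO libraries (log2 fold change -0.45, SE 0.20). Both overlapped, and FGFR1-CKO replicate 3 was their lowest library. Without that library the log2 fold change of Ulk4 was -0.25 (limma adjusted p = 0.134). Trim46, which organises microtubules at the start of the axon, had the log2 fold change nearest to 0 of the 70 on the log2(CPM + 1) scale: 5.14, 7.12, 5.25 and 6.10 CPM in the Control libraries and 4.04, 4.05, 5.09 and 4.13 CPM in the FGFR1-CKO libraries (log2 fold change -0.37, SE 0.13). By the ratio of means Trim46 stood at 73.3% of Control, and Shank3, at 76.1%, was nearest to its Control level. The exons of Trim46 overlap those of Krtcap2 on the opposite strand, and those of Ulk4 overlap Ctnnb1. The authors' use of strand is not given in the sources used here, so these values are uncertain. In all, 23 of the 70 genes, among them Erbb2, Plekhg4, Irx3, Chn1, Ptprd and Ddr2, have exons that overlap exons of another annotated gene, most often a non-coding one on the opposite strand. Arhgef25 (-0.48) and Prkd1 (-0.39), a guanine nucleotide exchange factor and protein kinase D, completed the role.

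The 9 cytoskeleton, motor and transport proteins had a median log2 fold change of -0.59. Nav1, a microtubule-binding neuron navigator, measured 206, 186, 202 and 196 CPM in the Control libraries and 140.4, 147, 129 and 154 CPM in the FGFR1-CKO libraries (log2 fold change -0.47, SE 0.07). Kank1, an adaptor of cortical actin and microtubules, measured 173, 132, 171 and 172 CPM in the Control libraries and 110.0, 116, 96.7 and 103 CPM in the FGFR1-CKO libraries (log2 fold change -0.60, SE 0.10). Palld, the actin-bundling protein palladin, measured 175, 164, 165 and 136 CPM in the Control libraries and 96.1, 92.8, 95.9 and 115 CPM in the FGFR1-CKO libraries (log2 fold change -0.67, SE 0.10). All 3 were apart between groups, with Kank1 low in Control replicate 2 and Palld high in FGFR1-CKO replicate 4. Map1b, a microtubule-associated protein of growing axons, measured 68.5, 46.2, 71.8 and 59.2 CPM in the Control libraries and 40.1, 47.8, 29.5 and 48.2 CPM in the FGFR1-CKO libraries (log2 fold change -0.56, SE 0.17). Septin4, a filament-forming GTPase, measured 31.8, 24.1, 32.97 and 42.5 CPM in the Control libraries and 26.3, 29.9, 22.6 and 19.95 CPM in the FGFR1-CKO libraries (log2 fold change -0.39, SE 0.16). In both, Control replicate 2 lay below the highest FGFR1-CKO library, and no other Control library did. Without Control replicate 4, its highest library, the log2 fold change of Septin4 was -0.26 (limma adjusted p = 0.113). The remaining members were Abi2 of the WAVE complex (-0.42), the lysophosphatidic acid receptor Lpar1 (-0.59), which signals to actin, the microtubule-binding Eml1 (-0.63) and drebrin, Dbn1 (-0.64).

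The 7 genes placed by hand with channels, receptors and membrane enzymes did not all fit that name, such as P3h1 and Ndrg4. Some have their best known work elsewhere: P3h1 is a prolyl 3-hydroxylase of collagen, and Trpv4 a calcium channel opened by mechanical and osmotic stimuli. The median log2 fold change was -0.46. Itm2c, a small membrane protein that binds the amyloid precursor protein, measured 175, 173, 168 and 190.3 CPM in the Control libraries and 129.8, 130.0, 132 and 122 CPM in the FGFR1-CKO libraries (log2 fold change -0.46, SE 0.07). P3h1 measured 93.1, 112, 104 and 84.7 CPM in the Control libraries and 53.5, 54.8, 64.7 and 63.5 CPM in the FGFR1-CKO libraries (log2 fold change -0.72, SE 0.10). Ndrg4, a member of the NDRG family, measured 36.1, 30.6, 30.4 and 33.5 CPM in the Control libraries and 19.4, 18.1, 18.4 and 18.6 CPM in the FGFR1-CKO libraries (log2 fold change -0.77, SE 0.08). The 3 were apart between groups, and the FGFR1-CKO libraries of Ndrg4 spanned only 18.1 to 19.4 CPM. Mboat1, a lysophospholipid acyltransferase, measured 16.2, 12.6, 15.7 and 16.6 CPM in the Control libraries and 11.8, 12.8, 9.80 and 11.8 CPM in the FGFR1-CKO libraries (log2 fold change -0.37, SE 0.11). Control replicate 2 lay below FGFR1-CKO replicate 2, so this gene overlapped. Trpv4 (-0.66), the LDL receptor relative Lrp12 (-0.42) and Pomgnt2 (-0.45), a glycosyltransferase of dystroglycan, did not overlap.

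The 8 adapters, scaffolds and other proteins had a median log2 fold change of -0.58. Pdzd2, a protein with many PDZ domains, measured 166, 164, 178 and 136 CPM in the Control libraries and 99.6, 99.3, 109.5 and 111 CPM in the FGFR1-CKO libraries (log2 fold change -0.61, SE 0.09). Magi2 measured 115, 98.4, 117 and 114 CPM in the Control libraries and 71.97, 80.2, 62.9 and 79.5 CPM in the FGFR1-CKO libraries (log2 fold change -0.59, SE 0.09). Shank3, a scaffold of excitatory synapses, measured 85.2, 59.5, 72.7 and 76.95 CPM in the Control libraries and 60.2, 58.9, 48.3 and 56.6 CPM in the FGFR1-CKO libraries (log2 fold change -0.38, SE 0.11). Pdzd2 and Magi2 were apart between groups, whereas for Shank3 Control replicate 2 lay below FGFR1-CKO replicate 1. Mt3, a metallothionein first known as a growth inhibitory factor of brain, had the largest change of the 70: 11.97, 13.9, 11.97 and 26.98 CPM in the Control libraries and 7.16, 7.79, 8.74 and 3.93 CPM in the FGFR1-CKO libraries (log2 fold change -1.09, SE 0.27). Its groups were apart, but Control replicate 4 was high and FGFR1-CKO replicate 4 low. Apbb1, which binds the amyloid precursor protein, measured 25.4, 27.8, 22.2 and 37.5 CPM in the Control libraries and 19.5, 22.3, 16.1 and 21.6 CPM in the FGFR1-CKO libraries (log2 fold change -0.47, SE 0.15), and Control replicate 3 lay just below FGFR1-CKO replicate 2. Sh3rf1, a scaffold of JNK signalling (-0.78), the splicing regulator Nova2 (-0.56) and the liprin Ppfia2 (-0.49) did not overlap.

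Levels among the 70 genes spanned a wide range. By CPM the Control means ran from 5.90 (Trim46) to 797 (Ptprs), with a median of 32.9. There were 18 genes above 100 CPM and 6 below 10 CPM. Per kilobase of exon, in Control, the order began with Apoe at 209, Id3 at 108, Itm2c at 70.96 and Ptprs at 53.2 CPM per kilobase, each with all 4 Control libraries above those of the next gene. Irx5 (37.7) and Unc5b (37.4) followed and overlapped each other. Of the 69 pairs of neighbours in this order, 8 were apart and 61 overlapped, so most adjacent ranks are not separate. Ulk4 at 0.867, Nrcam at 0.817 and Ntrk2 at 0.347 CPM per kilobase ended it.

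**Figure D3:**
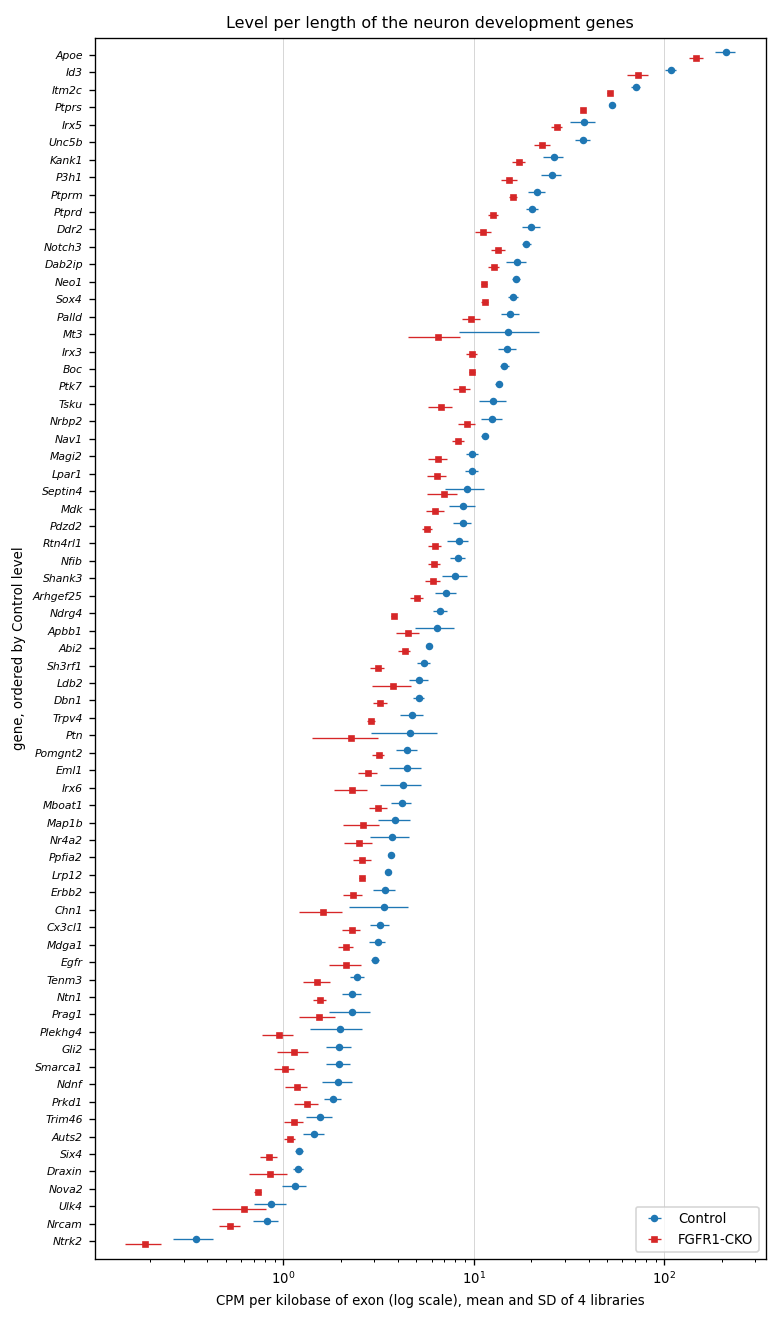
Level per length of 69 of the 70 genes (CPM per kilobase of exon, log axis), Control as circles and FGFR1-CKO as squares, mean and SD of 4 libraries, ordered by the Control level. Levels run from 0.347 (Ntrk2) to 209 (Apoe) in Control, and each FGFR1-CKO mean lies to the left of its Control mean.

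The genes were spread over 18 chromosomes, with more on chromosome 8 than elsewhere. There were 11 of the 70 on it, 15.7%, beside 5.7% of the listed lower genes and 5.9% of all listed genes. They were Prag1, Tenm3, Sh3rf1, Palld, Irx3, Irx5, Irx6, Mt3, Cx3cl1, Ndrg4 and Plekhg4. Several were near neighbours: Sh3rf1 and Palld lay 115.4 kilobases apart, Mt3 and Cx3cl1 617.9 kilobases, and Cx3cl1 and Ndrg4 894.6 kilobases. No test of this count was made.

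The workbook also held gene lists from Ocy454, a mouse cell line with features of osteocytes, in 3 pairs headed as up with BGJ or up with FGF2. BGJ is a short name used for an inhibitor of FGF receptor kinases, and FGF2 is a ligand of these receptors. The lists give symbols with no values, and neither what was compared nor the thresholds are stated. Of the 70 genes, 7 stood in at least one BGJ list, 10% of the genes and 3.65% of the 192 genes of these lists, and 0 stood in any FGF2 list, which together hold 231 genes. Of the other 1195 listed lower genes, 69 (5.77%) stood in a BGJ list and 39 (3.26%) in an FGF2 list, and over all 1265 listed lower genes the shares were 6.01% and 3.08%. Of the 729 listed higher genes, 4 (0.549%) and 2 (0.274%) did so. No gene stood in lists of both directions.

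Ptn, Ndnf and Irx3 were in all 3 BGJ lists, and Plekhg4, Magi2, Id3 and Irx5 in 2 of them. These 7 genes, which belong to 4 of the roles above, had log2 fold changes in bone from -0.93 (Ptn) to -0.45 (Irx5), with a median of -0.59. They were thus lower in FGFR1-CKO bone and named as up in the cell line with BGJ. Trim46 was the eighth of the 70 in a combined Ocy454 list of 627 genes, which gives no direction for it. These 8 were 11.4% of the 70, below the 13.4% of all listed lower genes that stood in the combined list. A sheet of neuron genes of the Ocy454 work, with 53 genes, held 5 of the 70: Irx5, Plekhg4, Id3, Irx3 and Ptn. Both sets were gathered as neuron genes, and the share of other listed genes in that sheet was not counted.

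**Figure D4:**
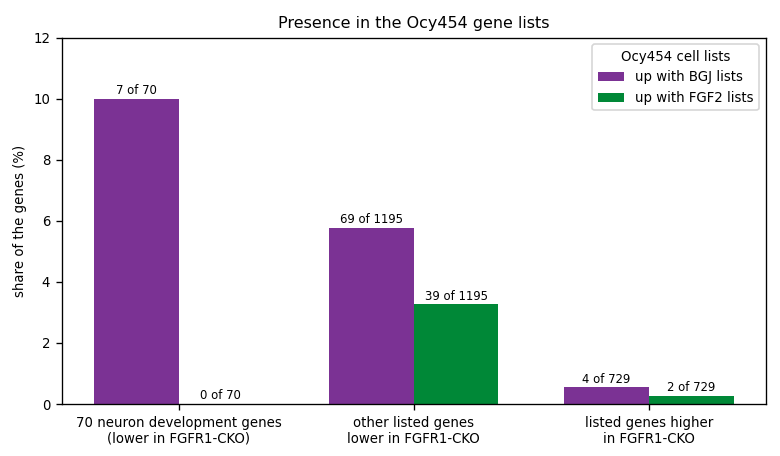
Share (%) of the 70 genes, of the other listed lower genes and of the listed higher genes that stood in an Ocy454 list headed up with BGJ or up with FGF2, with the counts above the bars. The 70 genes have 7 in the BGJ lists and 0 in the FGF2 lists.

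By the Gene Ontology columns of the sheet, 14 of the 70 genes carried axon guidance, 30 regulation of neuron projection development, 1 of them (Chn1) both, and 27 neither. Median log2 fold changes were -0.56, -0.59 and -0.50 for the first, the second and the last of these sets. No defining marker of nerve fibres stood in the table: 0 of 26, among them Tubb3, Snap25, Th and Calca, were listed, so nothing is known here of their level. Of 20 Schwann cell markers 3 were listed: S100b (log2 fold change -1.07) passed the threshold as lower and Gfap (0.88) as higher, and Pmp22 (-0.45) did not pass.

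Listed markers of bone cells, osteoclasts, vessels, fat and stroma were lower, like the 70 genes, while listed erythroid and neutrophil markers were higher. Only listed markers enter the values below, and the same libraries had chosen them for differing, so groups that lie apart say nothing of the markers left out. Of all listed genes, 60.6% of the lower and 100% of the higher passed the threshold. The mean log2(CPM + 1) of the 22 listed osteoblast markers, of 23, ran from 8.92 to 9.06 in Control and from 8.02 to 8.24 in FGFR1-CKO, and 21 passed the threshold as lower. Of 17 osteocyte markers 11 were listed and 9 passed as lower, with ranges of 7.18 to 7.35 and 6.46 to 6.65. Endothelial markers (10 of 15 listed, 6 passed as lower) ran from 5.31 to 5.67 in Control and 4.89 to 5.05 in FGFR1-CKO. Pericyte and smooth muscle markers (7 of 12 listed, 4 passed as lower) ran from 6.81 to 7.10 and from 6.08 to 6.53. Osteoclast markers (8 of 12 listed, all 8 lower) ran from 5.99 to 7.05 and from 5.18 to 5.73. Adipocyte markers (3 of 10 listed, 2 passed as lower) ran from 3.89 to 5.18 and from 3.66 to 4.26. Stromal markers (4 of 9 listed, 2 passed as lower) ran from 7.25 to 7.64 and from 6.83 to 7.08. Erythroid markers moved the other way: 20 of 21 were listed and all 20 passed as higher, from 7.04 to 7.47 in Control and 8.30 to 8.46 in FGFR1-CKO. Neutrophil markers did so too, with 8 of 16 listed, all 8 higher, from 8.70 to 9.01 and from 9.57 to 9.81. Of 14 skeletal muscle markers 0 were listed. The part of these cell types in the levels of the 70 genes was not tested.

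Within each group, the libraries were not placed alike. Control replicate 1 was the highest Control for 28 of the 70 genes and Control replicate 2 the lowest for 30. FGFR1-CKO replicate 3 was the lowest of its group for 32 genes but the highest for 18, and FGFR1-CKO replicate 4 the highest for 27. Over the 1265 listed lower genes, Control replicate 2 was also most often the lowest Control, for 35.7%, and FGFR1-CKO replicate 3 the lowest of its group, for 47.7%, but the highest Control was most often replicate 4, for 33.8%, ahead of replicate 1, for 31.3%. Scaled to the reads outside collagen I, Control replicate 2 was the lowest for 25 and FGFR1-CKO replicate 3 the lowest for 26 and the highest for 23. The replicate spread of the 70 genes, as a median coefficient of variation, was 11.7% in Control and 10.2% in FGFR1-CKO, beside 11.3% and 9.93% over the listed lower genes.

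Deviations from the group mean were shared between single libraries of the groups. Across the 70 genes, which are measured in the same libraries and are not independent, the Pearson correlation of the deviations was 0.73 for Control replicate 4 with FGFR1-CKO replicate 2, 0.67 for Control replicate 1 with FGFR1-CKO replicate 1 and 0.55 for Control replicate 2 with FGFR1-CKO replicate 3. Over the listed lower genes the same pairs gave 0.76, 0.67 and 0.52. The lowest value among the 70, -0.70, belonged to Control replicate 2 with FGFR1-CKO replicate 2. Ptn, Plekhg4 and Ndnf were above their group mean in both Control replicate 2 and FGFR1-CKO replicate 3, while Map1b, Prag1 and Ulk4 were below it in both. Without Control replicate 2 and FGFR1-CKO replicate 3, 42 of the 70 genes passed the threshold, 40 of them shared with the fit of all libraries. In that fit 38.2% of all listed genes were called lower.

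**Figure D5:**
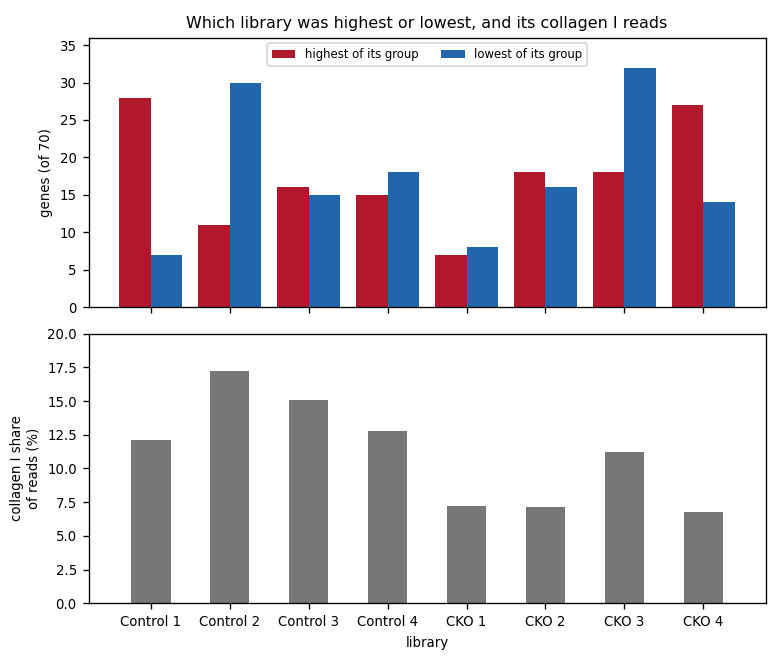
Upper bars: number of the 70 genes for which a library was the highest or the lowest of its group. Lower bars: share (%) of the reads of the library from the 2 collagen I genes. Control replicate 2 and FGFR1-CKO replicate 3 have the most collagen I reads of their groups, 17.2% and 11.2%, and are most often the lowest, for 30 and 32 genes.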

How the data were processed

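Bulk RNA-seq of 4 Control and 4 FGFR1-CKO libraries was analysed from the authors' workbook. Library preparation used RNase H against ribosomal RNA and random hexamers, per the labels' protocols. Tools named in the submitters' processing notes, with no role, are STAR 2.7.9a, Subread 2.0.1, DESeq2, edgeR, RSEM, featureCounts and cutadapt, and the build is mm10. The sources used here give neither the annotation nor the use of strand. The authors deposited CPM for each library of 1994 listed genes, scaled to library totals, with a mean normalized signal, log2 fold changes, p-values and scores (Wald statistics) beside them, per the file headers. A note deposited with the table gives 436 genes taken out for an average under 5. Gene lists hold symbols.

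From the deposited CPM, limma 3.58.1 in R 4.3.3 (eBayes with trend, 2-sided) was run on log2(CPM + 1) over all listed genes with genotype as the sole term. Calls needed a Benjamini-Hochberg adjusted p under 0.05 and a log2 fold change of 0.5 or more in size. The pseudocount of 1 CPM understates the change of low genes. Tested on simulated data of 1994 genes for the Control against FGFR1-CKO contrast, the step called 50 of 50 genes lowered to 0.5 of their level, 35 of 50 lowered to 0.667, nearer to the changes of the 70 genes, and 0 of 1794 left alike. The simulated reads had the same spread setting for every gene, most genes left alike and no shift in collagen I reads. The listed genes were all chosen for differing and vary in spread, so the simulated rates do not carry over to them. Library totals were found at which 100.0% of the CPM values were whole reads within 0.001 reads. Count models on these reads were not run. P-values set the difference between groups against the spread between the libraries of a group, which may be technical. The genes were chosen by the same contrast and the libraries by their Fgfr1 level, which limits what these p-values can say. Intervals were not drawn from read counts.

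The values of 1 of the 70 genes are not reported here singly, though it enters the counts over the 70. The members and lists were chosen with earlier results of these data known. Replicate numbers follow accession order and pair nothing. Genes with values in every library were the 3 with the highest mean CPM of each role, the 6 with the lowest log2 fold change, the 4 nearest to 0, those whose groups overlap, and Fgfr1. Draxin, Ntrk2 and Irx3 were added after their values were seen. Exon lengths (the union of all annotated exons of a gene) and positions came from GENCODE M21 (GRCm38), upstream sequences from RefSeq (GRCm38.p6). Roles followed lists for 37 of the 70 genes and general knowledge for the rest. Alternatives were other pseudocounts, a CPM minimum of 10, size factors, no trend, leaving out libraries and, chosen after seeing the data, counting outside collagen I and leaving out Control replicate 2 with FGFR1-CKO replicate 3.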

Additional observations from a re-analysis of the deposited data

Results flagged for a closer look

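Of 138 groups of 4 libraries (69 genes in Control and in FGFR1-CKO), 8 had a library far from the other 3 by Dixon's criterion, where chance gives about 1 in 20. In Control replicate 2, Kank1 was low at 132 CPM (others 171 to 173) and Magi2 low at 98.4 CPM (others 114 to 117). In Control replicate 4, Mt3 was high at 27.0 CPM (others 12.0 to 13.9) and Ptprd low at 412 CPM (others 475 to 484). In FGFR1-CKO replicate 2, Nrbp2 was high at 41.4 CPM (others 33.5 to 34.5). In FGFR1-CKO replicate 3, Trim46 was high at 5.09 CPM (others 4.04 to 4.13). In FGFR1-CKO replicate 4, Dab2ip was high at 117 CPM (others 102 to 103) and Palld high at 115 CPM (others 92.8 to 96.1).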

How the results depend on the processing

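All 70 genes kept a log2 fold change below 0 in every alternative run (60 of 60 where a mean of 10 CPM was required). Dividing by the size factors moved the median log2 fold change of all listed genes from -0.43 to -0.54. Under it, 64 of the 70 genes passed the threshold in place of 42, their median log2 fold change was -0.64, and 1156 of all listed genes were called lower in place of 766, so that the share of calls that were lower was 64.0% beside 51.2%. Scaled to the reads outside collagen I, 63 of the 70 passed and their median was -0.63, while 56.9% of all listed genes were called lower in place of 38.4%. Leaving out each library in turn gave 38 to 49 of the 70 genes, a median of -0.56 to -0.52, and 701 to 842 lower and 715 to 725 higher calls over all listed genes. Pseudocounts of 0.1 and 5 CPM gave 47 and 32 of the 70, with 42.2% and 26.4% of all listed genes called lower. A mean of 10 CPM gave 37 of 60, with 38.7%. Leaving out Control replicate 4 with FGFR1-CKO replicate 3 gave 38 of the 70, with 33.6% of all listed genes called lower. The edgeR and DESeq2 alternatives were not run. No paired analysis was possible because the labels give no replicate number shared by the groups. Depth limits the lowest genes: Ntrk2 rests on 26 reads in FGFR1-CKO replicate 3.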
